A study of Sus scrofa with 23 samples.

Results

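Birth ends the supply of glucose and oxygen through the placenta, and the newborn pig has to breathe, move, keep warm and live on colostrum, which is rich in fat. The comparison described here set all 6 samples taken at 1 day post natum (dpn, the usual reading of the label) against all 5 samples taken at 94 days post conception (dpc), before birth. These were 11 of the 23 samples of the series, chosen by the stage in their labels. The animals of both stages were born to, or carried by, German Landrace gilts whose gestational diet was low in protein (LP in the labels). The samples of 94 dpc, used here as controls, shared that diet. Without samples of another diet, any part of the diet in the change between the stages cannot be told apart from stage. Sex is not given. The design text names 3 gilts per stage without linking an animal to its mother. With more animals than gilts in each stage, some must share a mother if each sample is a separate animal, and p-values that treat each animal as independent may be too small. RNA of each sample was labelled with biotin and measured on a porcine Affymetrix array. Each of 23999 probe sets gave a signal, an intensity that was taken here as log2(signal + 16). Changes are given as log2 differences, 1 dpn minus 94 dpc, with the standard error of the fit. A pair of signals such as "A ± B to C ± D" is the mean ± SD of the 5 samples at 94 dpc followed by that of the 6 samples at 1 dpn. The 2 ages lie on either side of birth but are also weeks of growth apart, so that birth and age cannot be told apart.

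Late in gestation, as background, a rise in cortisol prepares many organs for birth. Cortisol acts through the glucocorticoid receptor, a transcription factor that switches on target genes such as FKBP5 and KLF9. After birth the fatty acids of milk activate PPAR receptors, whose targets carry fat into mitochondria and hold back the use of glucose. Skeletal muscle of the newborn meanwhile leaves the state in which cells divide and fuse into fibres, and builds mitochondria, sarcomeres and calcium stores.

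The tissue labels read liver, whereas the title of the series names muscle, and the data went against the label. The 22 measured skeletal muscle markers had a median rank at the 99.2nd to 99.4th percentile of all probe sets in every sample of both stages. The 43 measured hepatocyte markers had a median rank between the 25.3rd and the 61.8th percentile. The samples are therefore called only by their stage. In bulk tissue, fewer cells of a type and less RNA per cell cannot be told apart, which holds for every result below. Samples at 1 dpn were less alike than those at 94 dpc, with a median pairwise correlation of 0.905 against 0.951. In 1 dpn replicates 2, 4 and 5 the 5' over 3' ratio of the GAPDH control probe sets was 0.0868 to 0.148. It was 1.09 to 1.29 in the other samples of the series. The same ratio of the actin control was 1.009, 0.8169 and 0.9851 in these 3 samples. It ran from 0.8202 to 1.1004 at 94 dpc and from 0.9992 to 1.2135 in 1 dpn replicates 1, 3 and 6. The actin ratio thus showed no drop like that of GAPDH. The cause of the low GAPDH ratio was not tested. The hybridisation control bioD read between 9677 and 14142 at 94 dpc and between 24574 and 41780 at 1 dpn, so that the stages did not overlap in it. Its part in the results was not tested. Taken over every probe set, the log2 change had a median of -0.11 in the deposited scaling. Quantile normalization moved this median to 0.04 and median centring of the arrays moved it to 0.17, so a small change of a whole gene group is read against these shifts.

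At 1 dpn 1939 probe sets were higher (8.08%) and 4284 lower (17.9%) than at 94 dpc, at an adjusted p under 0.05 in limma, together 25.9% of those tested. Of 6765 genes, each read from 1 probe set, 925 rose (13.7%) and 1313 fell (19.4%), together 33.1%, and the median log2 change of all genes was -0.06. A change of at least 2-fold was met by 489 of the rises (7.23% of all genes) and 741 of the falls (11.0%). For 1338 genes, 19.8%, no sample of one stage reached into the range of the other. The split between rises and falls depended on the scaling. Rises made up 31.2% of the called probe sets in the deposited scaling, 47.3% after quantile normalization and 59.4% after median centring. Counts of gene groups below are to be read against these shares. The plot of change against adjusted p shows the genes with the largest changes.

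**Figure D1:**
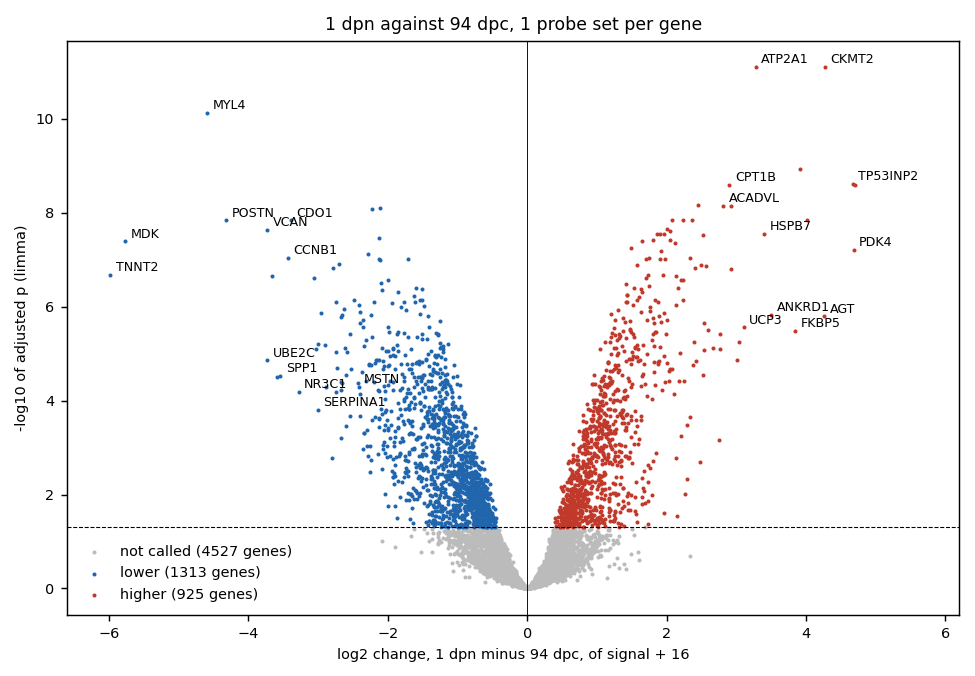
Log2 change of signal + 16 from 94 dpc to 1 dpn (x axis) against the -log10 of limma's adjusted p (y axis), with 1 point per gene. The dashed line is the threshold of 0.05. CKMT2 and ATP2A1 have the lowest adjusted p among the rises, and TNNT2 and MDK are the largest falls.

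Genes of the switch to fat as fuel were among the largest rises. PDK4 encodes the kinase that shuts pyruvate out of mitochondrial oxidation. Its signals, in order of replicate, were 474, 634, 500.1, 208 and 317 at 94 dpc, and 6699 (lowest), 9139.8 (median) and 23936 (highest) at 1 dpn. Every sample of 1 dpn lay far above every sample of 94 dpc, a 25.7-fold rise (log2 change 4.68 ± 0.43, adjusted p = 6.1e-08 in limma). UCP3 encodes a mitochondrial uncoupling protein known to rise with fatty acid supply. Its signals were 67.4, 37.7, 66.8, 6.55 and 107 at 94 dpc, and 334 (lowest), 539 (median) and 792 (highest) at 1 dpn, again without overlap (log2 change 3.11 ± 0.38, adjusted p = 2.7e-06). CPT1B, the muscle enzyme that commits long-chain fatty acids to mitochondrial entry, read 1532, 1059, 747, 999.6 and 775 at 94 dpc, and 5669 (lowest), 6888 (median) and 10779 (highest) at 1 dpn. The lowest 1 dpn sample of CPT1B was several times the highest 94 dpc sample, and the gene rose 7.47-fold (2.90 ± 0.21, adjusted p = 2.5e-09).

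Of the 20 measured genes in the list of fuel switch and PPAR targets, 12 rose, 1 fell and 7 did not pass the test. This was 65.0% called against 33.1% of all genes, with a median log2 change of 1.06. PNPLA2, the lipase that opens triglyceride stores, rose from 2069.8 ± 219 to 16572 ± 5768, a log2 change of 2.93. LPIN1, which makes diacylglycerol and also acts beside PPAR receptors, rose from 321 ± 82.8 to 2811 ± 2182 (2.76). FABP3, the fatty acid carrier of muscle cytosol, rose from 7459.5 ± 2000.5 to 45970 ± 19569 (2.53). ANGPTL4, a secreted inhibitor of lipoprotein lipase, rose from 159 ± 61.3 to 1058 ± 506 (2.54). These 4 genes had adjusted p of at most 8.2e-06 and non-overlapping samples. A second probe set of ANGPTL4 gave 1.25 and was not called. PPARGC1A, the coactivator of mitochondrial biogenesis, is listed with mitochondrial biogenesis and gave -0.33 ± 0.43 with an adjusted p of 0.622. The sign for PPARGC1A turned to 0.10 without the 3 samples of low GAPDH ratio and to 0.07 without 1 dpn replicate 2, so it has no settled direction here.

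Enzymes that burn fatty acids rose together. In the beta-oxidation list 15 of 19 measured genes rose and none fell (78.95% called against 33.1% of all genes). The median log2 change of the list was 1.12 against -0.06 for all genes. ACADVL, the first dehydrogenase for long-chain acyl-CoA, read 3995, 3286, 2460.3, 2364 and 2435 at 94 dpc, and 15615 (lowest), 19423 (median) and 27326 (highest) at 1 dpn. The groups were wide apart, with a 7.03-fold rise (2.81 ± 0.22, adjusted p = 7e-09). Both subunits of the trifunctional protein, which carries out the later steps on long chains, rose to a like extent: HADHA by 2.04 ± 0.18 and HADHB by 2.24 ± 0.18 on the log2 scale. ACADS, the dehydrogenase for short chains, rose by 2.23 ± 0.25, and ECI1, an isomerase for unsaturated fatty acids, rose by 1.77 ± 0.20. None of these 4 genes overlapped between stages, and their adjusted p was at most 1e-06. Further probe sets of HADHB gave 1.85, which was called, and 0.75, which was not.

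The steps after beta-oxidation moved the same way. Of 29 measured genes of the tricarboxylic acid cycle and pyruvate entry, 21 rose, 1 fell and 7 did not pass the test. This was 75.9% called against 33.1% of all genes (median log2 change 1.17). MPC2, a subunit of the carrier that brings pyruvate into mitochondria, rose from 6516 ± 1335 to 33731 ± 7644 (2.36). MDH1, the cytosolic malate dehydrogenase, rose from 6447 ± 935 to 29742 ± 8632 (2.16), and IDH2, the mitochondrial NADP-linked isocitrate dehydrogenase, from 9253 ± 2457 to 35712 ± 8778 (1.95). IDH3A, a subunit of the cycle's own isocitrate dehydrogenase, rose by 1.90 ± 0.22, and ME3, a mitochondrial malic enzyme, by 2.05 ± 0.30. A second probe set of IDH3A gave 0.27 and was not called. The 1 gene of the list that fell was IDH1, the cytosolic NADP-linked isocitrate dehydrogenase (-0.66 ± 0.21, adjusted p = 0.0224). That call was lost without 94 dpc replicate 3 or 1 dpn replicate 2 (highest adjusted p = 0.0604), with the 3 low-ratio samples left out (-0.50, adjusted p = 0.0692), under both other scalings, with the ratio as a covariate and when only the 2 stages were fitted.

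MDH1 also belongs to the malate-aspartate shuttle, which carries the electrons of cytosolic NADH into mitochondria. The aminotransferases of the shuttle rose with it: GOT1, the cytosolic form, by 2.19 ± 0.30 and GOT2, the mitochondrial form, by 1.81 ± 0.16. GOT2 read 6802, 5599.7, 4709.6, 5124 and 5163 at 94 dpc, and 16522 (lowest), 18124 (median) and 27568 (highest) at 1 dpn. All samples of 1 dpn lay above those of 94 dpc, and the highest of them was 1 dpn replicate 1. SLC25A11, the carrier that exchanges malate for oxoglutarate, rose by 1.82 ± 0.24 (adjusted p = 6.7e-06). Among the other mitochondrial carriers, SLC25A4, the exchanger of ADP for ATP in muscle, rose by 1.31 ± 0.15. SLC25A33, a pyrimidine nucleotide carrier, rose by 2.77 ± 0.35, but a second, dimmer probe set of this gene gave 0.28 and was not called.

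Of 56 measured subunits of the respiratory chain and ATP synthase, 49 rose, 0 fell and 7 did not pass the test (87.5% called against 33.1% of all genes). The median log2 change was 1.05, and 37 of the 56 did not overlap between stages. After quantile normalization 39 rose and 2 fell, with a median of 0.65. NDUFC1 and NDUFA9, subunits of complex I, rose by 1.98 ± 0.19 and 1.70 ± 0.17. UQCRB of complex III rose by 1.87 ± 0.16, and CYCS, cytochrome c, by 1.82 ± 0.27. NDUFC1 read 2922, 2966, 2635, 3157 and 2982 at 94 dpc, and 7489 (lowest), 12194 (median) and 14909 (highest) at 1 dpn, with no overlap.

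Mitochondrial protein synthesis and import changed less evenly. In this list of 76 genes, 35 rose, 1 fell and 40 did not pass the test (47.4% called against 33.1% of all genes, median 0.45). MRPL2, a protein of the large mitochondrial ribosomal subunit, rose by 1.71 ± 0.16, and TIMM8B, a small chaperone of the inner membrane import route, by 1.42 ± 0.15. MRPL2 gave 0.41 on a further probe set and was not called there. The 1 fall was TOMM34 (-0.98 ± 0.26, adjusted p = 0.00732), a cytosolic partner of import, and it was not called under quantile normalization or median centring. Of 13 genes for biogenesis and dynamics, 4 rose, 30.8% called against 33.1% of all genes. They were IMMT, which shapes the cristae (1.21 ± 0.18), PHB2, a prohibitin (1.13 ± 0.22), SIRT3, a deacetylase (0.95 ± 0.22), and CHCHD3, a partner of IMMT (0.84 ± 0.17). Samples overlapped for PHB2 and SIRT3.

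Genes that make iron-sulfur clusters, cofactors of the respiratory chain, are held in the list of iron handling genes. Of that list 3 of 20 rose and none fell, 15.0% called against 33.1% of all genes, and the rises were ISCA1, GLRX5 and NFS1. ISCA1, a carrier protein for new clusters, rose from 2535 ± 359.8 to 10697 ± 2518 (2.05, adjusted p = 2.4e-08). GLRX5, a glutaredoxin that hands clusters on, rose by 1.40 ± 0.22, and NFS1, which frees the sulfur, by 1.08 ± 0.18. ALAS1, which starts the synthesis of haem, another such cofactor, is held in the list of erythroid genes and read 1509, 1288, 1098, 999 and 1091 at 94 dpc, and 4274 (lowest), 4980.5 (median) and 6713 (highest) at 1 dpn. ALAS1 rose 4.23-fold without overlap (2.08 ± 0.17, adjusted p = 1.4e-08). 1 of its other probe sets gave -0.39 and 1 gave 0.84, neither called.

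The energy buffer of muscle was led by CKMT2, the creatine kinase of muscle mitochondria. Its signals were 1608, 2341, 1106, 2009 and 1582 at 94 dpc, and 23221 (lowest), 33513 (median) and 46235 (highest) at 1 dpn. This was a 19.3-fold rise with a gap of about an order of magnitude between the stages (4.27 ± 0.22, adjusted p = 7.8e-12). CKM, the cytosolic creatine kinase, read between 39615 and 48137 at 94 dpc and between 39852 and 87003 at 1 dpn, and the difference did not pass the test (0.45 ± 0.19, adjusted p = 0.0814). It was called under other settings, for example without the low-ratio samples (0.60, adjusted p = 0.037). In the whole list of creatine and adenylate kinases 5 of 10 rose and 1 fell (60.0% called against 33.1% of all genes). AK3, an adenylate kinase of the mitochondrial matrix, rose by 1.13 ± 0.23, but its other probe sets gave 0.48 and 0.35 and were not called.

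The plot of signals by sample shows the spread behind these changes, with the 3 samples of low GAPDH ratio drawn open.

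**Figure D2:**
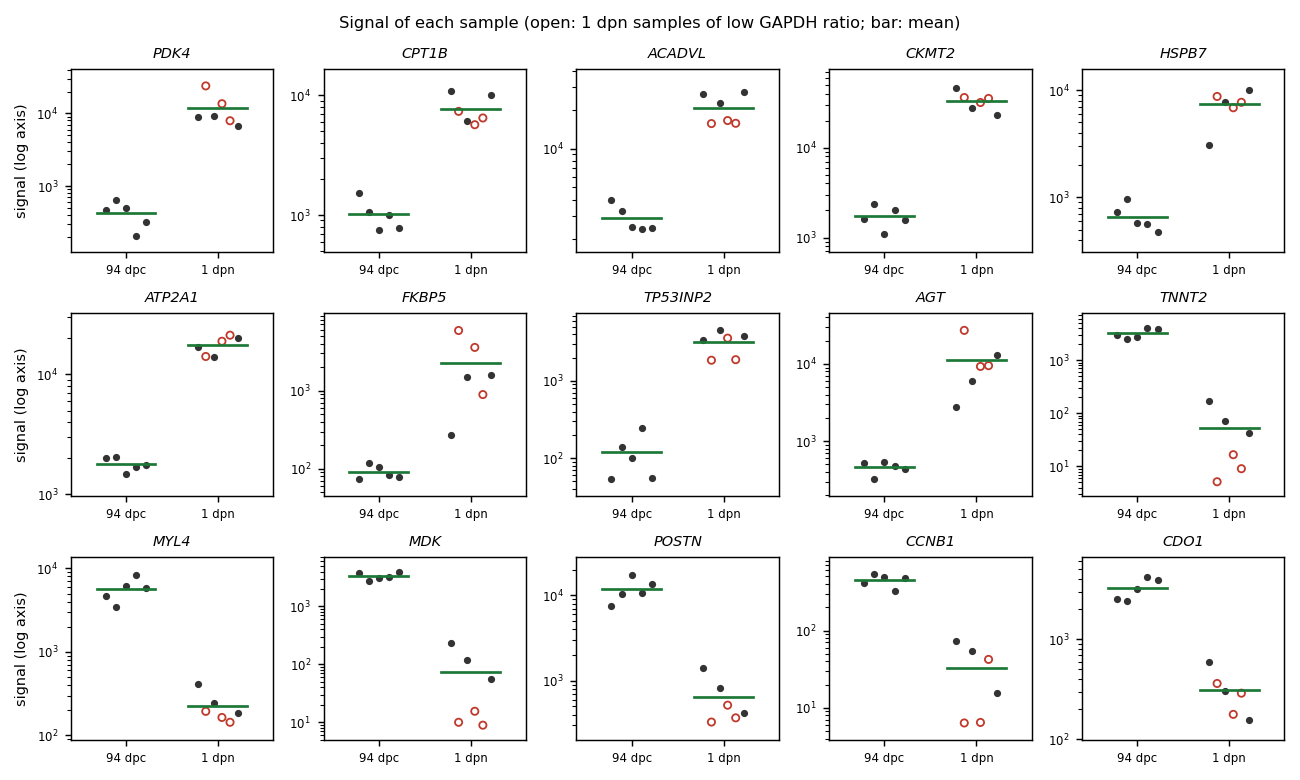
Signal of each sample (log y axis) at 94 dpc (5 points) and 1 dpn (6 points) for 15 genes, with green bars for the means and open circles for the 3 samples of 1 dpn with a GAPDH ratio under 0.5. No gene shown overlaps between the stages. For TNNT2 and MDK the open circles are the lowest points, and for FKBP5 and AGT replicate 2, an open circle, is the highest.

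Glycolytic genes were split. Of 26 measured, 6 rose, 3 fell and 17 did not pass the test (34.6% called against 33.1% of all genes, median 0.33). PFKM, the muscle phosphofructokinase that sets the pace of glycolysis, rose by 1.41 ± 0.31, PGK1 by 1.22 ± 0.24 and GPI by 1.21 ± 0.24. PFKM read 5449, 5521, 4222, 4328 and 5217 at 94 dpc, and 3501 (lowest), 15954 (median) and 24667 (highest) at 1 dpn. Replicate 2 of 1 dpn lay below every sample of 94 dpc for PFKM, while the other 5 samples lay above them. The falls included SLC2A1, the glucose transporter typical of fetal and dividing cells (-1.29 ± 0.32, adjusted p = 0.00427), and HK1, the hexokinase of most non-muscle tissues (-0.97 ± 0.20, adjusted p = 0.00101). With the 3 low-ratio samples left out SLC2A1 gave -0.81 and was not called (adjusted p = 0.0879). GAPDH itself, on its brightest probe set, gave 0.45 ± 0.17 with an adjusted p of 0.0589. Of its other 4 probe sets, 2 were called higher (0.58 and 0.88) and 2 were not called.

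Genes of both the synthesis and the breakdown of glycogen rose. Of 15 measured genes, 8 rose, 1 fell and 6 did not pass the test (60.0% called against 33.1% of all genes, median 0.84). PYGM, the muscle phosphorylase that breaks glycogen down, rose from 9348 ± 1624 to 32763 ± 15565 (1.68 ± 0.26). GYS1, the synthase that builds it, rose by 1.27 ± 0.24, UGP2, which makes the activated glucose, by 1.21 ± 0.28, and GYG1, the protein primer, by 1.09 ± 0.23. Further probe sets of PYGM gave 1.27, which was called, and 0.72 and 0.50, which were not. Those of GYS1 (0.54 and 0.57) and UGP2 (0.60) were not called. SLC37A4, the glucose-6-phosphate carrier of the endoplasmic reticulum, rose by 1.04 ± 0.22. STBD1, an anchor that ties glycogen to membranes, went the other way: its signals were 3884, 3149.5, 3213, 3684 and 3435 at 94 dpc, and 343 (lowest), 829 (median) and 2859 (highest) at 1 dpn. STBD1 fell 4.11-fold without overlap (-2.04 ± 0.33, adjusted p = 6.2e-05).

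In amino acid metabolism CDO1, which oxidises cysteine on the way to taurine, was one of the largest falls. It read 2503, 2409.8, 3174, 4202 and 3909.8 at 94 dpc, and 155 (lowest), 298 (median) and 597 (highest) at 1 dpn. The highest 1 dpn sample was well under the lowest 94 dpc sample, a 10.5-fold fall (-3.39 ± 0.28, adjusted p = 1.5e-08). GLUL, glutamine synthetase, rose by 1.40 ± 0.29 (adjusted p = 0.00093), and BCKDK, the brake on branched-chain amino acid oxidation, by 1.26 ± 0.16. The other 2 probe sets of GLUL gave -0.28 and 1.07 and were not called. Of the 38 genes of amino acid breakdown and synthesis 7 rose and 2 fell, 23.7% called against 33.1% of all genes. Enzymes against oxidants rose more often: 14 of 38 rose and 5 fell (50.0% called, median 0.48). SOD2, the superoxide dismutase of mitochondria, rose from 1233 ± 232 to 5957 ± 1943 (2.20), GPX1 by 1.68 ± 0.24, GPX2 by 2.30 ± 0.58, and GCLM, a subunit of the enzyme that limits glutathione synthesis, by 2.10 ± 0.34. GCLM gave 0.22 on a further, dim probe set and was not called there.

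Known targets of the glucocorticoid receptor rose more often than they fell. Of 21 measured, 9 rose, 1 fell and 11 did not pass the test (47.6% called against 33.1% of all genes, median 0.66). FKBP5, a chaperone that dampens the receptor and is one of its most responsive targets, read 74.5, 119, 107, 83.2 and 78.1 at 94 dpc, and 269.6 (lowest), 1544 (median) and 5867 (highest) at 1 dpn. FKBP5 rose 14.4-fold (3.85 ± 0.48, adjusted p = 3.3e-06). Its 1 dpn samples spread widely, with the lowest at replicate 1 and the highest at replicate 2, but none reached the range of 94 dpc. KLF9, a transcription factor induced by glucocorticoids and thyroid hormone, rose by 2.37 ± 0.34, and TSC22D3, also known as GILZ, by 1.81 ± 0.23. CEBPD and CEBPB, transcription factors of metabolic and stress responses, rose by 2.34 ± 0.42 and 2.01 ± 0.29. The 5 genes had adjusted p of at most 0.00022. A second probe set each of KLF9, CEBPD and TSC22D3 gave 0.25, 0.31 and -0.04 and was not called, while another of CEBPD was called at 2.85.

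HSD11B1 encodes the enzyme that regenerates active cortisol within cells. It read 490.1, 472, 314, 466 and 351 at 94 dpc, and 851 (lowest), 1499 (median) and 2115 (highest) at 1 dpn. The gene rose 3.49-fold without overlap (1.81 ± 0.21, adjusted p = 1.7e-06). For NR3C1, the glucocorticoid receptor itself, the brightest probe set fell by a log2 change of -3.28 ± 0.53 (adjusted p = 6.6e-05), from signals between 379 and 870.0 at 94 dpc and between 7.85 and 275 at 1 dpn. The other 3 probe sets of NR3C1 gave 0.12, 0.90 and -0.41, none of them called, so the direction for the receptor rests on 1 probe set. Of 26 steroid, thyroid and other nuclear receptor genes, 1 rose, 3 fell and 22 did not pass the test (15.4% called). THRA, a thyroid hormone receptor, gave -0.19 ± 0.23 (adjusted p = 0.603). AGT, angiotensinogen, read 528, 324, 533, 476 and 441 at 94 dpc, and 2759 (lowest), 9405 (median) and 27244 (highest) at 1 dpn. It rose 19.2-fold without overlap (4.26 ± 0.50, adjusted p = 1.6e-06), and the highest sample was again 1 dpn replicate 2. In the list of adrenergic and angiotensin genes 3 of 12 rose and none fell.

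Most subunits of the proteasome, which degrades tagged proteins, rose. Of 37 measured proteasome subunits, 21 rose, 0 fell and 16 did not pass the test, a share of 56.8% called against 33.1% of all genes (median 0.73). PSMA7, a subunit of the catalytic core, rose from 17527 ± 1944 to 40637 ± 7036 (1.20). PSMD2, PSMD4 and PSMD12, parts of the regulatory cap, rose by 1.32 ± 0.17, 1.20 ± 0.14 and 1.29 ± 0.22. TP53INP2, a promoter of autophagosome formation in muscle, was the largest change of the proteolysis list. It read 53.6, 139, 99.2, 246 and 55.5 at 94 dpc, and 1851 (lowest), 3499 (median) and 4507 (highest) at 1 dpn, with the stages far apart (25.5-fold, 4.67 ± 0.33, adjusted p = 2.4e-09). Within that list of 27 genes 6 rose and 4 fell, 37.0% called against 33.1% of all genes. SQSTM1, the autophagy receptor p62, rose by 1.63 ± 0.30, MAP1LC3B, which coats autophagosomes, by 1.35 ± 0.24, and MUL1, a ubiquitin ligase of mitochondria, by 0.95 ± 0.17. MAP1LC3B gave 0.23 on a further probe set and was not called there. BNIP3L, a receptor for the removal of mitochondria, fell by a log2 change of -1.55 ± 0.25.

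Chaperones rose more often than they fell: of 54 measured, 21 rose, 4 fell and 29 did not pass the test. This was 46.3% called against 33.1% of all genes, with a median of 0.33. BAG3, which with HSPB8 clears damaged sarcomere proteins, rose by 1.84 ± 0.23, and HSPB8 by 1.51 ± 0.20. On a further probe set BAG3 gave 0.28 and was not called. HSP70.2, the name on the array for a stress-inducible HSP70, rose by 1.73 ± 0.40 with overlapping samples. Its other probe sets gave 1.65, which was called, and 0.65, which was not. DNAJB6, a co-chaperone of the Z-disc, rose by 2.04 ± 0.31, although its other 3 probe sets gave between -0.67 and 0.61 and were not called. DNAJC14 fell by a log2 change of -1.19 ± 0.19. Of 22 genes of the integrated stress, unfolded protein and p53 responses 1 rose and 5 fell, 27.3% called against 33.1% of all genes. HSP90B1 and PDIA6, which fold secreted proteins in the endoplasmic reticulum, gave -1.20 ± 0.22 and -0.91 ± 0.20, and BAX, an effector of apoptosis, gave -1.91 ± 0.40. SDF2L1, another protein of this compartment, was the rise (2.29 ± 0.43, from dim signals between 8.71 and 30.8 at 94 dpc and between 90.8 and 223 at 1 dpn).

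The cardiac and embryonic isoforms of the contractile apparatus gave the largest fall on the array. TNNT2, the cardiac troponin T that fetal skeletal muscle also makes, read 2986, 2534, 2676, 4088 and 3890.2 at 94 dpc, and 5.16 (lowest), 29.5 (median) and 174 (highest) at 1 dpn. The stages were separated by more than an order of magnitude, with a fall of 63.1-fold (-5.98 ± 0.60, adjusted p = 2.1e-07). The 3 samples of low GAPDH ratio were the lowest, and without them the log2 change was -5.01. MYL4, the embryonic and atrial myosin light chain, read 4615, 3406, 6131, 8323 and 5891 at 94 dpc, and 143 (lowest), 189 (median) and 416 (highest) at 1 dpn, likewise without overlap (-4.58 ± 0.26, adjusted p = 7.4e-11). ACTC1, cardiac actin, gave 0.51 ± 0.24 (adjusted p = 0.128) and ACTA2, smooth muscle actin, -0.49 ± 0.20 (adjusted p = 0.0719). Thus 2 of the 5 measured developmental isoforms fell, 40.0% called against 33.1% of all genes. Without the low-ratio samples ACTA2 was called lower (-0.69, adjusted p = 0.024), and so were 3 of the 5 isoforms. ACTA2 was also called lower under other settings, such as quantile normalization, and ACTC1 was called higher after median centring.

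Of the adult isoforms, MYL3, the slow light chain, rose from 4603 ± 1296 to 17800 ± 6562 (1.90 ± 0.25, adjusted p = 7.1e-06). MYH7, the slow myosin heavy chain, rose by 0.66 ± 0.20 (adjusted p = 0.0159). That call for MYH7 was lost without the 3 low-ratio samples (0.55, adjusted p = 0.0618), after quantile normalization, with the ratio as a covariate and when only the 2 stages were fitted. MYOZ1, a Z-disc protein of fast fibres, rose by 0.95 ± 0.17. MYL1, the fast light chain, gave 0.39 ± 0.17 (adjusted p = 0.106) and turned to -0.04 after quantile normalization, while median centring gave 0.66 and a call. In counts, 3 of 10 slow fibre genes rose and 2 fell (50.0% called), with a median log2 change of 0.06. No fall of the slow fibre list is named in this paragraph, so MYL3 and MYH7 do not stand for that list. Of 8 fast fibre genes 1 rose (12.5% called, median 0.37), against 33.1% of all genes called.

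Scaffold and stretch genes of the sarcomere rose in 17 of 26 cases and fell in 1 (69.2% called against 33.1% of all genes, median 0.96). ANKRD1, a titin-bound sensor of stretch, read 847, 304, 667, 1195 and 617 at 94 dpc, and 4034 (lowest), 8559.9 (median) and 12621 (highest) at 1 dpn (11.3-fold, 3.50 ± 0.41, adjusted p = 1.5e-06). HSPB7, a small heat shock protein that protects filamin and titin, read 729, 957, 573, 564 and 479.6 at 94 dpc, and 3066 (lowest), 7709.6 (median) and 10086 (highest) at 1 dpn. Neither gene overlapped between stages, and 1 dpn replicate 1 was the lowest 1 dpn sample for HSPB7 (3.40 ± 0.30). LMCD1 rose by 2.23 ± 0.23, XIRP2, an actin-binding protein of the sites where fibres are repaired, by 2.01 ± 0.24, and FHL3 by 1.77 ± 0.42. LMCD1 gave 0.96 on a further probe set and was not called there. The single fall was MYOM2, the M-band protein myomesin-2 (-1.06 ± 0.35, adjusted p = 0.029). It was lost without the low-ratio samples (-0.36, adjusted p = 0.403), after median centring, with the ratio as a covariate, when only the 2 stages were fitted, and when any of 94 dpc replicates 1, 3 and 4 or 1 dpn replicates 2, 4 and 5 was left out (highest adjusted p = 0.0594).

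Of 13 measured genes of the sarcoplasmic reticulum and calcium release, 3 rose, 2 fell and 8 did not pass the test. This was 38.5% called against 33.1% of all genes, with a median log2 change of -0.26. The largest change named here was that of ATP2A1, the calcium pump of fast fibres. It read 2010.2, 2026, 1469.7, 1702 and 1738 at 94 dpc, and 14060 (lowest), 17949 (median) and 21280 (highest) at 1 dpn. Both groups were tight and far apart (9.69-fold, 3.28 ± 0.17, adjusted p = 7.8e-12). MRLN, myoregulin, a small inhibitor of that pump, rose from 85.8 ± 15.0 to 552 ± 335 (2.20 ± 0.44). S100A1, a calcium sensor that acts on the release channel, fell by a log2 change of -2.52 ± 0.37, and RYR3, the release channel isoform common in fetal muscle, by -1.96 ± 0.34. Of the other 3 probe sets of RYR3, 1 was called lower (-1.49) and 2 dim ones were not called (-0.48 and 0.71). At the fibre surface CHRNA1, a subunit of the acetylcholine receptor at the nerve-muscle junction, gave -1.97 ± 0.43 (adjusted p = 0.00151) and NCAM1, an adhesion protein of young and denervated fibres, -1.46 ± 0.24. Further probe sets of NCAM1 gave -2.10 and -1.43, which were called, and -0.39, which was not. ATP1B1, a subunit of the sodium pump, rose by 1.76 ± 0.20, but gave 0.53 on a further probe set and was not called there. SNTB1, a syntrophin of the dystrophin complex, fell by a log2 change of -1.86 ± 0.25. In the list of the dystrophin complex and costamere 0 of 9 rose and 4 fell (44.4% called against 33.1% of all genes). Of these 4 calls 1 was kept without the low-ratio samples. The call for CHRNA1 was not made with the GAPDH ratio as a covariate.

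Regulators of myogenesis and satellite cells mostly fell among those called: 1 rose, 6 fell and 9 did not pass the test of 16. This was 43.75% called against 33.1% of all genes. MSTN, myostatin, the secreted brake on muscle growth, read 181, 303, 398, 154 and 160.1 at 94 dpc, and 5.79 (lowest), 33.3 (median) and 84.2 (highest) at 1 dpn. Its samples did not overlap, and it fell 5.34-fold (-2.42 ± 0.38, adjusted p = 5.1e-05). FST, follistatin, which binds and blocks myostatin, also fell (-1.35 ± 0.24, adjusted p = 0.0002). FST gave -0.545 on a further probe set and was not called there. CALCR, a receptor that keeps satellite cells quiescent, gave -2.27 ± 0.32, MYF5, an early myogenic transcription factor, -1.47 ± 0.32, and ID1, an inhibitor of such factors, -1.65 ± 0.31. MEF2D, a factor of late differentiation, was the rise (1.06 ± 0.22, adjusted p = 0.00096).

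Growth factor genes moved in both directions. In the insulin, IGF and growth hormone list, 4 of 27 measured genes rose and 6 fell, 37.0% called against 33.1% of all genes. IGF1 fell from 270.0 ± 59.2 to 79.4 ± 56.1 (-1.78 ± 0.36, adjusted p = 0.00072), and GHR, the growth hormone receptor, gave -1.51 ± 0.33. Further probe sets of IGF1 gave -0.85 and 0.34 and were not called, so its call rests on 1 probe set. IGF2 read between 6608 and 12721 at 94 dpc and between 3426 and 16076 at 1 dpn, and the difference did not pass the test (-0.87 ± 0.37, adjusted p = 0.0878). IGF2 was called after quantile normalization, without the dimmer probe sets, without 1 dpn replicate 6 and for the mean of its probe sets. Of its 12 other probe sets, 5 were called lower (-3.15 to -1.43) and 7 were not called. The binding proteins IGFBP2 and IGFBP5 gave -2.09 ± 0.50 and -1.36 ± 0.29, while PAPPA, a protease that frees IGF from binding proteins, rose by 1.69 ± 0.50. PAPPA gave 0.56 on a further, dim probe set and was not called there. AKT2, a kinase of the insulin pathway, rose by 0.94 ± 0.16. IGFBP2 was not called without the low-ratio samples (-1.47, adjusted p = 0.0618), nor GHR with the ratio as a covariate.

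Among 21 measured imprinted genes, 2 rose, 6 fell and 13 did not pass the test, 38.1% called against 33.1% of all genes. GRB10, an adaptor that dampens insulin and IGF signalling, was the largest rise of the list, from 1149 ± 326 to 5090.2 ± 1375 (2.13 ± 0.22, adjusted p = 2.2e-07). PEG10, a retrotransposon-derived gene, read 18083, 15596, 16968, 23793 and 20615 at 94 dpc, and 1560.1 (lowest), 3812 (median) and 7221 (highest) at 1 dpn. It fell 4.95-fold without overlap (-2.31 ± 0.35). Further probe sets of PEG10 gave -1.22, which was called, and -1.12, which was not. MEG3, a long non-coding RNA, gave -2.68 ± 0.54, and the log2 change of MEG3 was -1.26 without the samples of low GAPDH ratio. NDN, a growth suppressor, gave -0.77 ± 0.17. PEG3 gave -2.26 ± 0.55, and was not called without the low-ratio samples (-1.66, adjusted p = 0.0507). On a further probe set PEG3 gave -0.24 and was not called.

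No measured oncofetal or embryonic gene rose, while 8 of 14 fell (57.1% called against 33.1% of all genes, median -1.59). MDK, midkine, a growth factor of the embryo, read 3783, 2703, 3074, 3194 and 3899.6 at 94 dpc, and 8.92 (lowest), 36.0 (median) and 238 (highest) at 1 dpn. This was a 54.5-fold fall (-5.77 ± 0.51, adjusted p = 4e-08), with the 3 samples of low GAPDH ratio lowest, and the log2 change was -4.62 without them. LXN, latexin, an inhibitor of carboxypeptidases, gave -3.66 ± 0.37, and MARCKS, an actin-binding substrate of protein kinase C, -2.42 ± 0.27. Neither overlapped between the stages.

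Genes of cell division fell together. Of 36 mitosis and cyclin genes, 0 rose, 26 fell and 10 did not pass the test, a share of 72.2% called against 33.1% of all genes, with a median log2 change of -1.79. CCNB1, cyclin B1, which drives entry into mitosis, read 412, 533, 495, 321 and 476 at 94 dpc, and 6.37 (lowest), 28.9 (median) and 74.1 (highest) at 1 dpn. All 1 dpn samples were far below those of 94 dpc (10.8-fold, -3.43 ± 0.32, adjusted p = 9e-08). UBE2C, the ubiquitin-conjugating enzyme that ends mitosis, gave -3.73 ± 0.52, CDC25B, an activating phosphatase, -2.75 ± 0.37, CKS2, a cyclin-kinase subunit, -2.69 ± 0.26, and MELK, a kinase of dividing cells, -2.79 ± 0.27. A second, dim probe set of UBE2C gave 0.26 and was not called. Of 31 DNA replication genes 1 rose and 17 fell (58.1% called, median -0.71). PCNA, the sliding clamp of DNA polymerase, fell from 1351 ± 202 to 408 ± 118 (-1.72 ± 0.24). RRM2, which supplies deoxynucleotides, gave -1.92 ± 0.43. MCM2 of the replicative helicase gave -1.70 ± 0.50, and was not called without the low-ratio samples (-1.16, adjusted p = 0.0786) or after quantile normalization. Further probe sets of MCM2 gave 0.40 and -1.29 and were not called.

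Chromatin genes fell in 14 of 32 cases and rose in none (43.75% called against 33.1% of all genes, median -0.51). EZH2, the methyltransferase of the Polycomb complex, gave -2.75 ± 0.44, and LMNB1, a lamin of the nuclear envelope, -2.65 ± 0.31. HMGB2 and HMGN1, which bind DNA and nucleosomes, gave -1.76 ± 0.30 and -1.25 ± 0.18, and H2AFZ, a histone variant, -1.43 ± 0.26. Of 54 splicing factors and hnRNPs 16 fell and none rose, 29.6% called against 33.1% of all genes. Their median was -0.18, and it was 0.09 after median centring, where 5 members rose. MBNL3, the muscleblind member that antagonises muscle differentiation, gave -1.75 ± 0.30, CELF2 -1.15 ± 0.19 and HNRNPH3 -1.33 ± 0.24. Ribosomal proteins had no settled direction: 9 of 63 rose and 2 fell (17.5% called against 33.1% of all genes, median 0.15). After quantile normalization 1 rose and 18 fell (median -0.19), and after median centring 32 rose and 1 fell. Among 40 genes of actin and tubulin, 5 rose, 15 fell and 20 did not pass the test (50.0% called, median -0.46). STMN1, which takes microtubules apart in dividing cells, gave -2.10 ± 0.22, TPM4, a non-muscle tropomyosin, -1.66 ± 0.22, CAP1 -1.43 ± 0.23 and MYL6, the non-muscle myosin light chain, -1.31 ± 0.25.

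The plot of list members sets these groups side by side.

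**Figure D3:**
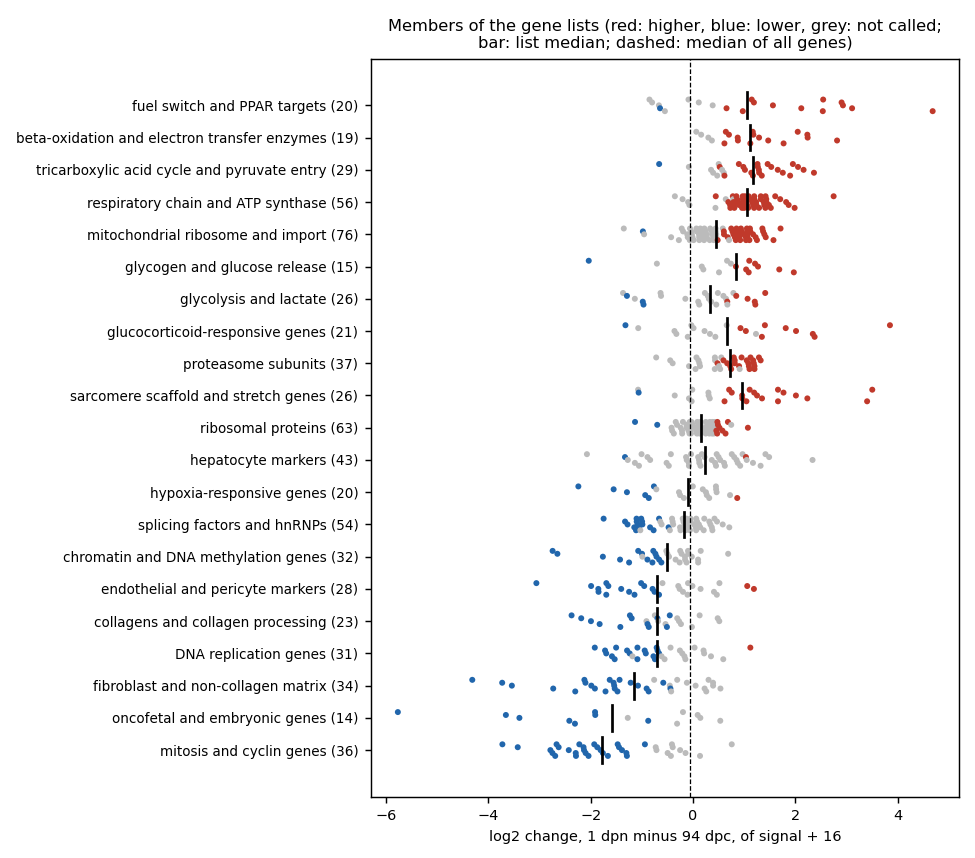
Log2 change of signal + 16 from 94 dpc to 1 dpn (x axis) for the measured members of 21 gene lists (number of members in brackets), with red for genes that rose, blue for genes that fell and grey for genes not called. Black bars are list medians and the dashed line is the median of all genes, -0.06. Medians run from -1.79 for mitosis to 1.17 for the tricarboxylic acid cycle. The median turns negative for ribosomal proteins after quantile normalization (-0.19), and positive for splicing factors after median centring (0.09) and for hypoxia genes under both (0.08 and 0.18).

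Matrix genes fell. Of 34 genes of fibroblasts and non-collagen matrix, 0 rose, 22 fell and 12 did not pass the test (64.7% called, median -1.15). POSTN, periostin, a matrix protein of growing connective tissue, read 7520.4, 10446, 17146, 10588 and 13608 at 94 dpc, and 328 (lowest), 465 (median) and 1414 (highest) at 1 dpn. The stages were separated by a wide gap (19.9-fold, -4.32 ± 0.36, adjusted p = 1.5e-08). VCAN, the hydrated proteoglycan versican, gave -3.73 ± 0.32, SPP1, osteopontin, -3.54 ± 0.53, ASPN, asporin, -2.73 ± 0.40, and THY1, a surface marker of fibroblasts, -2.30 ± 0.44. Of the other 4 probe sets of VCAN, 2 were called lower (both -2.33) and 2 dim ones were not called (0.40 and 0.05). Of 23 collagens and their processing enzymes 12 fell and none rose (52.2% called, median -0.70). COL1A2 fell from 3424 ± 1398 to 687 ± 374 (-2.37 ± 0.35), COL15A1, a basement membrane collagen, gave -2.00 ± 0.29, COL5A2 -2.19 ± 0.39, and SERPINH1, the chaperone of collagen, -1.83 ± 0.29. A second probe set each of COL1A2 and COL5A2 gave -1.19 and 0.45 and was not called. Of 20 matrix proteases and inhibitors 7 fell and 13 did not pass the test, 35.0% called against 33.1% of all genes. Among the falls were MMP14, a membrane-bound protease (-2.27 ± 0.32), SERPINE2 (-1.98 ± 0.28) and CTSK, a collagen-cleaving cathepsin (-1.51 ± 0.19). Summed over the fibroblast list, signals of 94 dpc samples ran from 188500 to 241900 and those of 1 dpn samples from 128900 to 180000.

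Genes of developmental signalling pathways fell more often than they rose. In the TGF-beta, BMP and activin list 1 rose and 9 fell of 25 (40.0% called). In the Wnt, Notch and hedgehog list 0 rose and 9 fell of 20 (45.0% called against 33.1% of all genes). Falls also outnumbered rises over all genes, 19.4% against 13.7%, a split that depended on the scaling. TGFB3, a TGF-beta ligand, gave -1.50 ± 0.28, BMPR1B, a BMP receptor, -1.54 ± 0.26, and SMAD1, the factor it activates, -1.44 ± 0.19. LRP6 and FZD6, co-receptor and receptor for Wnt, gave -2.05 ± 0.30 and -1.38 ± 0.21, and TCF7L1, a repressor at Wnt targets, -1.17 ± 0.18. A second probe set each of TGFB3 and FZD6 gave -0.10 and -0.04 and was not called. For BMPR1B a further probe set was called at -1.40 and another, at 0.31, was not. DLL4, a Notch ligand of vessels, gave -1.15 ± 0.23, and RBPJ, the transcription factor through which Notch acts, -2.74 ± 0.30. RBPJ read 1014, 1345, 1949, 1379 and 1416 at 94 dpc, and 104 (lowest), 179 (median) and 418 (highest) at 1 dpn, without overlap.

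Markers of vessels fell in 15 of 28 cases and rose in 2 (60.7% called against 33.1% of all genes, median -0.71). TIE1, a receptor kinase of endothelium, fell from 430.3 ± 149 to 41.0 ± 28.9 (-3.06 ± 0.31, adjusted p = 2.5e-07). RAMP2, which forms the adrenomedullin receptor, gave -1.99 ± 0.24, CLDN5, a tight junction protein of capillaries, -1.85 ± 0.34, and MCAM -1.85 ± 0.23. Summed over the list, signals of 94 dpc samples ran from 30870 to 40570 and those of 1 dpn samples from 23600 to 34120, with overlap.

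Blood and immune lists were called at or below the share of all genes. Of 28 macrophage and neutrophil markers, 3 rose, 6 fell and 19 did not pass the test (32.1% called against 33.1% of all genes), with CYBA, a subunit of the phagocyte oxidase (-2.34 ± 0.46), LAPTM5 (-1.78 ± 0.33) and FOLR2, a marker of resident macrophages (-1.18 ± 0.23), among the falls. LAPTM5 gave -0.29 on a further, dim probe set and was not called there. S100A8, a neutrophil protein, rose from dim signals (36.8 ± 26.5 to 164 ± 118, 1.73 ± 0.45). Of 26 lymphocyte markers 6 rose and 2 fell (30.8% called), including JCHAIN, the joining chain of antibodies (1.57 ± 0.30), and LTB, lymphotoxin beta (-2.13 ± 0.30). Antigen presentation genes fell in 5 of 19 cases (26.3%), but 1 of these calls was kept without the samples of low GAPDH ratio. The call that was kept was SLA-DQA1, a class II gene (-2.06 ± 0.42). Of 17 erythroid genes 2 rose and 3 fell (29.4% called). HBB, beta globin, fell from 522 ± 157 to 218 ± 55.0 (-1.18 ± 0.22). Of 43 hepatocyte markers 1 rose and 1 fell, 4.65% called against 33.1% of all genes. The fall was APOA1, the main apolipoprotein of HDL (8761 ± 1300.4 to 3469 ± 463, -1.33 ± 0.25). AHSG, the fetal serum protein fetuin-A, read between 1895 and 13295 at 94 dpc and between 91.9 and 4945 at 1 dpn and was not called (-2.07 ± 0.91, adjusted p = 0.0985), but it was without the low-ratio samples (-3.75, adjusted p = 0.00754). ALB, albumin, gave 1.32 ± 0.98 (adjusted p = 0.361) and -0.14 without those samples. SERPINA1, the serum inhibitor alpha-1-antitrypsin, fell 8.04-fold, from signals between 1041 and 8904 at 94 dpc and between 135 and 621 at 1 dpn (-3.01 ± 0.53, adjusted p = 0.00016).

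Genes that respond to low oxygen fell in 6 of 20 cases and rose in 1, near the share of all genes (35.0% called). ANKRD37, a direct HIF target, read 200.2, 309, 262, 191 and 239 at 94 dpc, and 19.9 (lowest), 35.2 (median) and 95.7 (highest) at 1 dpn. All 1 dpn samples were lower (-2.24 ± 0.26, adjusted p = 1.5e-06), with replicate 1 well above the other 5. ADM, adrenomedullin, gave -0.94 ± 0.25 (adjusted p = 0.00646), and was not called without the low-ratio samples (-0.57, adjusted p = 0.119) or under both other scalings. Of 26 immediate early and acute stress genes 1 rose and 6 fell, 26.9% called against 33.1% of all genes. Among the falls were DUSP6, a phosphatase that ends ERK signalling, at -1.24 ± 0.23 and BTG1, which slows proliferation, at -1.11 ± 0.24. On a further probe set DUSP6 gave -0.31 and was not called.

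Several of the 25 largest rises and 25 largest falls belonged to no list. LOC100153598, an uncharacterised gene on the array, had the largest rise, from 1103 ± 865 to 26352 ± 11195 (4.71 ± 0.33), but its second probe set gave -0.16 and was not called. TRNP1, a nuclear protein, rose from dim signals, 15.8 ± 15.3 to 434 ± 132 (3.91 ± 0.26). CLIP4, a microtubule-binding protein, read 134, 43.0, 155, 25.1 and 53.7 at 94 dpc, and 656 (lowest), 1410 (median) and 2045 (highest) at 1 dpn (4.02 ± 0.33, adjusted p = 1.5e-08). MYO5B, a motor that recycles membrane, rose by 3.04 ± 0.40, HOMER2, a scaffold at sites of calcium signalling, by 2.57 ± 0.25, DDO, which oxidises D-aspartate, by 2.93 ± 0.29, and CST6, a cystatin, by 3.01 ± 0.42. POLL, a DNA repair polymerase, and PM20D2 rose by 2.66 ± 0.36 and 2.60 ± 0.32. Among the falls, PLK2, a stress-responsive kinase, gave -2.96 ± 0.34, TMEM44 -3.02 ± 0.41, IZUMO4 -3.00 ± 0.39 and LHFP -2.90 ± 0.38. The 25 rises and 25 falls were picked only among genes without overlap between the stages, so the lack of overlap of these genes is no separate result. A second probe set of LHFP gave 0.06 and was not called. Further probe sets of HOMER2 gave 1.70, which was called, and 0.95, which was not.

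Leaving out the 3 samples of low GAPDH ratio left 3 against 5 samples. In limma, 967 genes were then higher (14.3%) and 1266 lower (18.7%), together 33.0%. Of the 2238 genes called with all samples, 2236 kept their sign and 1717 kept their call. In the lists of large rises nearly all calls were kept: 15 of 15 for beta-oxidation, 21 of 22 for the tricarboxylic acid cycle, 48 of 49 for the respiratory chain, 12 of 13 for fuel switch genes and 16 of 18 for sarcomere scaffolds. For falls these counts were 22 of 26 in mitosis, 19 of 22 in fibroblast matrix, 9 of 12 in collagens and 8 of 8 in oncofetal genes. Glucocorticoid-responsive genes kept 8 of 10, and the change became smaller for FKBP5 (3.05 against 3.85) and KLF9 (1.60 against 2.37). Ribosomal proteins kept 5 of 11, lymphocyte markers 3 of 8, and dystrophin complex genes 1 of 4. The scatter of both changes shows where the changes differ.

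**Figure D4:**
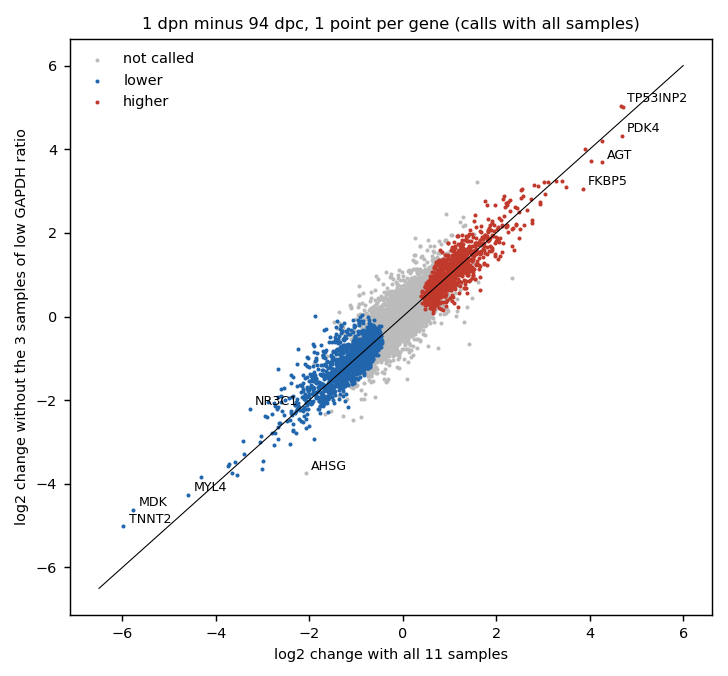
Log2 change from 94 dpc to 1 dpn with all 11 samples (x axis) and without the 3 samples of 1 dpn with a GAPDH ratio under 0.5 (y axis), with 1 point per gene coloured by its call with all samples. The line marks equal changes. TNNT2, MDK and NR3C1 lie above the line, with smaller falls without those samples.

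The later stages of the series give the levels of these genes after 1 dpn. Of the 25 largest rises, 18 had their highest stage mean at 1 dpn, and for 10 all samples of 28 dpn lay below all samples of 1 dpn. CPT1B went from a mean of 7722 at 1 dpn to 2344 at 28 dpn and 1112 at 188 dpn, near its 94 dpc mean of 1023. ACADVL went from 20684 to 6758 and 4544, and AGT from 11328 to 2661 and 2059. In contrast, 20 of the 25 rises had all 28 dpn samples above all 94 dpc samples, and 16 still did at 188 dpn. Means of CKMT2 were 33350 at 1 dpn, 25921 at 28 dpn and 31427 at 188 dpn, and those of ATP2A1 were 17592, 19255 and 26484. Of the 25 largest falls, 17 had their lowest stage mean at 1 dpn, and 22 had all 188 dpn samples below all 94 dpc samples. MSTN had a mean of 239 before birth, then of 34.9, 144 and 179 at the 3 later stages in turn. The 25 rises and 25 falls were picked by their change from 94 dpc to 1 dpn. That choice favours an extreme mean at 1 dpn and later levels beyond those of 94 dpc. The counts therefore describe the picked genes only, and the same shares over all genes were not taken. These later stages were not tested here.

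**Figure D5:**
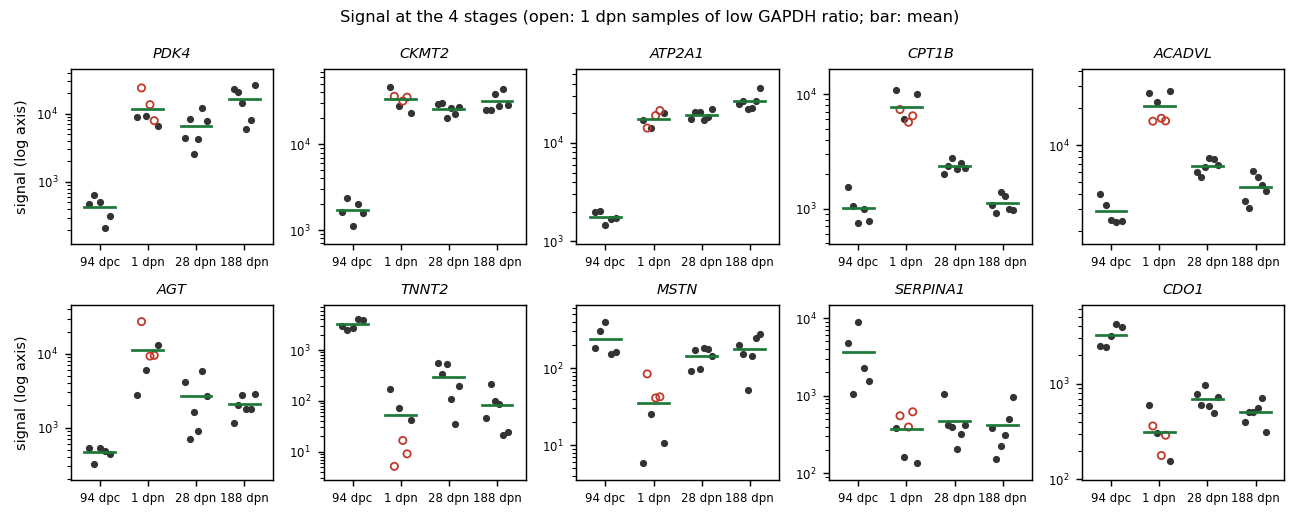
Signal of each sample (log y axis) at the 4 stages for 10 genes, with green bars for the means and open circles for the 3 samples of 1 dpn with a GAPDH ratio under 0.5. CPT1B, ACADVL and AGT are highest at 1 dpn, CKMT2 and ATP2A1 stay high through 188 dpn, and MSTN is lowest at 1 dpn.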

How the data were processed

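Measured were the 23 arrays of the series, of which 11 enter the comparison. Intensities were used as the authors deposited them in the series matrix: 1 linear signal for each of 24123 probe sets on each array. The submitters' processing notes list GCOS 1.1.1 but not what it did, and neither the summarisation nor a background correction is stated in the sources used here. The 2% trimmed mean was 500.1 to 500.2 on every array, from which the table was taken as already scaled, so that a shift of many bright genes moves all others. Detection calls were not used here, so no gene is called absent. Per the labels' protocols, cRNA was biotin-labelled from 0.5 ug of total RNA.

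After 124 AFFX controls were set aside, 23999 probe sets remained, taken as log2(signal + 16) with no further normalization. The model, fitted by lmFit and eBayes of limma 3.58.1 (R 4.3.3), gave every stage its own mean and used the 23 arrays together, with 1 spread for all stages. The two-sided test of 1 dpn minus 94 dpc was adjusted by Benjamini and Hochberg's method over every probe set, with a threshold of 0.05. Every adjusted p in the text comes from this fit or, where said, from an alternative. The number of arrays limits the precision, and p-values rest on the spread within stages, pooled over the 4 stages. Samples of 1 dpn were the least alike of the 4, with a median pairwise correlation of 0.905 against 0.931 to 0.951. The pooled spread may therefore be too small for 1 dpn. When only the 2 compared stages were fitted, 1653 genes were called instead of 2238. The fit was tested on simulated data.

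Annotation gave 1 symbol to 10069 probe sets. A gene (6765 in all) was read from the brightest of its probe sets, judged by the mean of all samples, and no symbol needed updating. Named were the 25 strongest rises and 25 strongest falls that were called, did not overlap and in the higher stage exceeded the median over all probe sets (7.15 on the log2 scale). Eligible besides these were up to 5 called members per direction of a described list and up to 3 of its brightest members. Any member of a list with 15 or fewer measured was eligible, as was a set of endocrine and growth genes. Not every eligible gene is named. Eligible genes whose call was lost under several alternatives are mostly given only in counts, a choice made after their values were seen. The comparison, the 60 gene lists and the alternatives were chosen with earlier results of these data known. Lists are described by counts and medians only. Replicates were numbered in accession order, and the numbers pair nothing.

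Alternatives were quantile normalization, median centring, a filter on dim probe sets, a pseudocount of 1 or 64, a fit of the 2 stages only, trend and robust options, array weights per sample and per stage, leaving out the 3 samples of 1 dpn with a GAPDH 5' over 3' ratio under 0.5, that ratio as a covariate, leaving out each of the 11 samples, averaging all probe sets of a gene, and a call that also asks for a 2-fold change. Matplotlib 3.10.9 (Python 3.11.15) drew the figures.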

Additional observations from a re-analysis of the deposited data

Results flagged for a closer look

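Signals of 204 named genes were searched in both stages for a sample far from the others, with Dixon's gap test on the log2 scale, and 22 of 408 groups (5.39%) held one. Chance gives about 1 in 20. At 1 dpn replicate 2 held 6 of them, replicate 1 held 4 and replicate 4 held 3.

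Replicate 2 of 1 dpn was lowest for PFKM, at 3501 against 12670 to 24670 in the other 5 samples. For MCM2 it read 18.7 against 184 to 312, and for PEG3 9.28 against 85.5 to 158. It was highest for CEBPB, at 14530 against 5191 to 6334, for HMGB2, at 2508 against 510.0 to 915, and for SPP1, at 673 against 203 to 294. Replicate 1 of 1 dpn was highest for GOT2, at 27570, for GPI, at 23020 against 6280 to 9529, and for ANKRD37, at 95.7 against 19.9 to 38.1. It was lowest for HSPB7, at 3067 against 6861 to 10090. Replicate 4 of 1 dpn was lowest for XIRP2 (5768), MMP14 (120) and DLL4 (170).

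At 94 dpc, replicate 5 was lowest for GYS1 (451) and for CST6, at 7.18 against 59.0 to 85.1. Replicate 4 was highest for SIRT3 (670) and LTB (672) and lowest for CKS2 (1229). Replicate 3 was highest for COL15A1, at 14230 against 9297 to 9594, and for ALB, at 1159 against 163 to 272. Replicate 2 was highest for LOC100153598, at 2641 against 567 to 828, and replicate 1 was lowest for TGFB3 (489).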

How the results depend on the processing

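The count of called probe sets was 6223, and 4673 to 6712 under the other settings apart from leaving out 1 sample. Leaving out 1 sample at a time gave 5139 to 6250 called probe sets and 1928 to 2264 called genes. Median centring moved the split most, to 3611 probe sets higher and 2473 lower, and to 1543 genes higher and 770 lower, with no probe set called in the opposite direction. A call that also asked for a 2-fold change kept 1230 genes, 489 higher and 741 lower. Of 2880 counts of list members under the alternatives, 472 moved by more than 1.5 times. Of 194 called genes named in the text, 183 were called in every setting, and none of the 194 changed sign. The named genes were partly chosen because their calls held, so 183 of 194 does not stand for all called genes. Without the low-ratio samples 186 of the 194 kept their call, against 1717 of all 2238 called genes. Among the named genes, sign changed only for those that were not called. PPARGC1A, at -0.33, gave 0.10 without the samples of low GAPDH ratio, 0.24 with the ratio as a covariate, and -0.58 to 0.066 with 1 sample left out. ALB, at 1.32, gave -0.14 and -0.18 under the first 2 of these settings, THRA gave 0.088 after median centring and MYL1 -0.045 after quantile normalization. The cause was not tested. Of 97 other probe sets of called named genes, 42 were called in the same direction, 38 had the same sign without a call, 17 had the opposite sign without a call, and 0 were called in the opposite direction. No paired analysis was possible because the replicate numbers follow accession order and pair no samples. Without detection calls, changes between dim signals cannot be told from background.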
